A study of Mus musculus with 6 samples.

Results

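Interferon gamma, the long noncoding RNA encoded beside it and the 2 chains of its receptor were followed in mouse CD4+ T cells with and without idelalisib. The 4 genes, Ifng, Ifngas1, Ifngr1 and Ifngr2, were taken by symbol from a count table of 54532 genes, each symbol having 1 row. They were chosen by their known relation to the cytokine with results of this same contrast in view. Their differences between the groups are therefore given as a description, without a test.

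The study cultured T cells purified from C57BL/6 mouse spleens and asked how idelalisib acts on their activation and differentiation. Idelalisib blocks PI3K delta, the lymphocyte form of the lipid kinase that relays antigen receptor and cytokine signals. The idelalisib group holds 3 libraries from cells kept for 72 h under Th1 conditions with the drug, and the control group holds 3 libraries from cells kept for 72 h under Th1 conditions without it. Both groups share the strain, the cell type and the culture condition, and the labels give no dose, vehicle or stimuli. The labels call the libraries biological replicates without saying whether they came from separate mice, so errors and p-values reflect only how these cultures vary, which may be technical.

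IFN-γ is the signature cytokine of Th1 cells, a dimeric protein that activates macrophages and raises antigen presentation. It binds IFNGR1, the ligand-binding chain, and engages IFNGR2, the chain that recruits JAK2; JAK1 sits on IFNGR1, and signalling from the assembled receptor induces genes such as Irf1. Ifngas1, also called NeST, is a nuclear lncRNA of the Ifng locus that in mouse binds the histone methyltransferase subunit WDR5 and promotes Ifng transcription in CD8+ T cells. In mouse T cells, a low level of IFNGR2 on Th1 cells limits their own response to IFN-γ.

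The promoters are shown first because the genes differ in the sequence around their start sites and, as described further on, in their level and direction. All 4 members matched the RefSeq promoter table of GRCm38.p6. Each sequence runs 5′ to 3′ along the strand of its gene, from 250 bases before to 50 bases after the start. Capitals mark matches on either strand to 5 motifs, the TATA box with letters TATAAA, the GC box with letters GGGCGG, the core of T-box sites with letters GGTGTG, the core of NFAT sites with letters GGAAA, and the GAS element of STAT factors with letters TTCNNNGAA. The Ifng window is chr10:118440796-118441095 on the plus strand, that of Ifngas1 is chr10:118556476-118556775 on the minus strand, that of Ifngr1 is chr10:19591699-19591998 on the plus strand, and that of Ifngr2 is chr16:91546809-91547108 on the plus strand.
Ifng: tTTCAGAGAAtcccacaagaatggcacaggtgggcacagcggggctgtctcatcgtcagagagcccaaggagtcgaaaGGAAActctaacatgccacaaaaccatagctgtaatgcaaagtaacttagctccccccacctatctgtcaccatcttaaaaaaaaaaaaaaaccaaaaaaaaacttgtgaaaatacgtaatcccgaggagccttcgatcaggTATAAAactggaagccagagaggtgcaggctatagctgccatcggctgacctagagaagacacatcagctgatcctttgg
Ifngas1: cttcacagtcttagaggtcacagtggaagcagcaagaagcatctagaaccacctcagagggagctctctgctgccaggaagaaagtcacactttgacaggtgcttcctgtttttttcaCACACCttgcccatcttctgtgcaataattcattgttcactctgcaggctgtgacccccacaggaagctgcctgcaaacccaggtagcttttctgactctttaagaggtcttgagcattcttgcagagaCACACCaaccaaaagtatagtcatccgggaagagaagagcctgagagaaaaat
Ifngr1: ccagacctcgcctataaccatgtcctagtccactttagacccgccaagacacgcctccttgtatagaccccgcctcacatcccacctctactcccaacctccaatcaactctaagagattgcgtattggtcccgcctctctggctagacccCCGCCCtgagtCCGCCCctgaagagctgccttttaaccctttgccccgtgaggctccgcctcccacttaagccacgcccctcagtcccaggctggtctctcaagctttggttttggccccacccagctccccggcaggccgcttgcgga
Ifngr2: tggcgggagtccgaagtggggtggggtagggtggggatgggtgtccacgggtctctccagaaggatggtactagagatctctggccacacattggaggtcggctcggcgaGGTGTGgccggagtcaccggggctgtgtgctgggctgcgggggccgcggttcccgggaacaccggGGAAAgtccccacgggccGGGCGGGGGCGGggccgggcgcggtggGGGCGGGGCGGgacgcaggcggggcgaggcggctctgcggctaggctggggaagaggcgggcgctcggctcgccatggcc

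The Ifng window holds a TATA box 30 bases before the start, an NFAT core at 172 and a GAS element at 249 bases before it. The Ifngas1 window has no TATA box match and holds 2 T-box cores on the opposite strand, 132 and 3 bases before the start. The windows of the receptor chains carry GC boxes instead, 2 in Ifngr1 on the opposite strand at 99 and 88 bases, and 4 in Ifngr2 at 57, 51, 30 and 25 bases before the start, the last pair sharing a base. Ifngr2 also holds a T-box core at 140 and an NFAT core at 75 bases before the start. GC content was 46% in Ifng, 47.67% in Ifngas1, 60.33% in Ifngr1 and 74.33% in Ifngr2, beside a median of 52.67% over 32851 promoters. Of those promoters 13.6% hold TATAAA, 35.7% GGGCGG, 19% GGTGTG, 61.3% GGAAA and 8.3% TTCNNNGAA, so each match is a description of letters and not of a bound site. None of the 4 windows holds TGANTCA (AP-1, in 7.81% of promoters), TGTTTAC (FOXO, 3.65%) or the interferon-stimulated response element (3.44%).

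The libraries hold between 13372318 and 16770452 counts, and values are given as CPM, the count relative to a library size scaled by the TMM method. Across 14530 genes with enough counts, edgeR's quasi-likelihood test at an adjusted p under 0.05 called 44.6%, with 22.2% higher and 22.4% lower in idelalisib cells, and the CPM of the groups did not overlap for 54.6%. With library size alone as the scaling, 68.5% of the calls were higher in idelalisib cells instead of 49.7%, and the median over the tested genes was a log2 fold change of 0.16 instead of 0.01. Mitochondrial genes took 1.84 to 2.26% of counts in idelalisib and 1.85 to 2.04% in control libraries. All 4 members passed the filter on low counts, and 3 of them met the threshold, 1 higher and 2 lower. With 44.6% of all genes called and the members chosen on this contrast, nothing is read from that count.

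Ifng, which encodes the cytokine itself (ENSMUSG00000055170, chr10:118441046-118445892, plus strand, 4 exons), was 2.65-fold lower in idelalisib cells. It had 157.0, 129.5 and 152.5 CPM in idelalisib libraries, against 383.6, 418.8 and 361.3 CPM in control libraries. Every idelalisib library lay below every control library, by a wide margin relative to the spread inside either group. The means were 146.3 ± 14.8 CPM in idelalisib and 387.9 ± 29.0 CPM in control cells (SD, n = 3 each), a log2 fold change of -1.41 with a standard error of 0.09. Of the 14530 genes tested, 496 (3.41%) had a lower log2 fold change. In cultured cells taken in bulk, fewer Ifng-expressing cells and less Ifng RNA per cell cannot be told apart. Even with idelalisib the gene stayed among the most abundant transcripts, at rank 295, 360 and 325 of all genes by level per length in idelalisib libraries, against 130, 124 and 143 in control libraries.

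Ifngas1, the lncRNA (ENSMUSG00000112230, chr10:118502035-118556525, minus strand, 5 exons), went the other way and was 8.27-fold higher in idelalisib cells. The values were 5.20, 7.01 and 4.48 CPM in idelalisib libraries, against 0.876, 0.528 and 0.572 CPM in control libraries. All idelalisib libraries were above all control libraries. The second idelalisib library, the one with the least Ifng, had the most Ifngas1. The control libraries did not follow that order: control replicate 3 had the least Ifng of the controls (361.3 CPM), but control replicate 1 had their most Ifngas1 (0.876 CPM). No relation between the 2 genes across libraries is read from this. The means were 5.56 ± 1.30 CPM in idelalisib and 0.659 ± 0.189 CPM in control cells (SD, n = 3 each), a log2 fold change of 3.05 with a standard error of 0.31. Few reads stand behind the control level, with 79, 99 and 75 counts in idelalisib and 14, 8 and 8 counts in control libraries. The summed 253 counts in idelalisib and 30 counts in control libraries, set against the library totals, give a ratio of 9.19 with an exact 95% interval of 6.28 to 13.9, which covers counting error only. A higher log2 fold change was seen in 45 (0.31%) of the genes tested and in 4 of the 351 lincRNAs tested. Among those lincRNAs 23.6% were called higher and 14.2% lower in idelalisib cells.

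**Figure D1:**
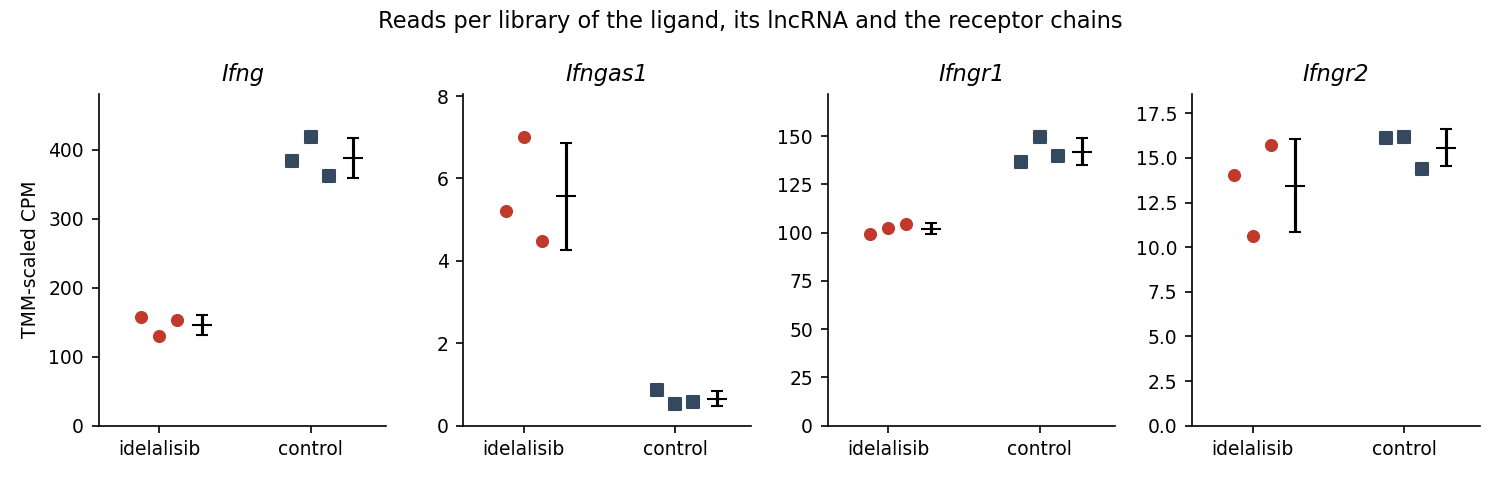
CPM (TMM-scaled) of Ifng, Ifngas1, Ifngr1 and Ifngr2 in each library, idelalisib left and control right of each panel, points for the 3 libraries and bars for mean and SD. Ifng and Ifngr1 are lower and Ifngas1 higher in every idelalisib library than in any control library, while the groups overlap for Ifngr2.

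Ifngr1, the ligand-binding receptor chain (ENSMUSG00000020009, chr10:19591949-19610229, plus strand, 7 exons), was 1.39-fold lower in idelalisib cells. It had 99.3, 102.4 and 104.6 CPM in idelalisib libraries, against 136.5, 149.6 and 139.7 CPM in control libraries. The groups did not overlap and each was narrow, with means of 102.1 ± 2.66 CPM in idelalisib and 141.9 ± 6.83 CPM in control cells (SD, n = 3 each). The log2 fold change was -0.47 with a standard error of 0.08, and 18.8% of the genes tested had a lower one.

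For Ifngr2, the signalling chain (ENSMUSG00000022965, chr16:91547072-91565623, plus strand, 7 exons), the groups overlapped. It had 14.0, 10.6 and 15.7 CPM in idelalisib libraries, against 16.1, 16.2 and 14.4 CPM in control libraries. The highest idelalisib library was above the lowest control library, and the second idelalisib library was the lowest of the 6. The means were 13.4 ± 2.59 CPM in idelalisib and 15.6 ± 1.04 CPM in control cells (SD, n = 3 each), with a log2 fold change of -0.21 and a standard error of 0.15. Without the second idelalisib library the log2 fold change was -0.06, so the value rests largely on that library.

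To compare levels between the genes, counts were divided by gene length and given as TPM, which scales each library to 1 common total. In idelalisib cells Ifng stood at 391 ± 38.6 TPM, Ifngr1 at 124 ± 1.66, Ifngas1 at 17.2 ± 4.31 and Ifngr2 at 12.3 ± 2.17, and in control cells Ifng stood at 904 ± 63.4 TPM, Ifngr1 at 150 ± 6.03, Ifngr2 at 12.5 ± 0.844 and Ifngas1 at 1.78 ± 0.526 (SD, n = 3 each). The lncRNA thus was last of the 4 in control cells. In idelalisib cells its TPM, between 13.4 and 21.9, overlapped that of Ifngr2, between 9.88 and 14.0, so those neighbours in the order are not separated there.

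Ratios within a library do not depend on how libraries are scaled to each other. Per length, there were 38.3, 62.5 and 33.9 Ifngas1 transcripts per 1000 of Ifng in idelalisib libraries, against 2.64, 1.46 and 1.83 in control libraries. The means were 44.9 ± 15.4 in idelalisib and 1.97 ± 0.604 in control cells (SD, n = 3 each), and the log2 ratio was higher by 4.50, or 22.6-fold, in idelalisib cells. Ifng transcripts per Ifngr1 transcript numbered 3.47, 2.78 and 3.2 in idelalisib libraries, against 6.18, 6.15 and 5.69 in control libraries. Ligand RNA thus exceeded ligand-binding chain RNA in all 6 libraries, by less in each idelalisib library. The ratio of Ifngr1 to Ifngr2 was 9.37, 12.8 and 8.81 in idelalisib libraries and 11.2, 12.2 and 12.9 in control libraries. The groups overlapped in this ratio between the receptor chains, with means of 10.3 ± 2.13 in idelalisib and 12.1 ± 0.845 in control cells (SD, n = 3 each).

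**Figure D2:**
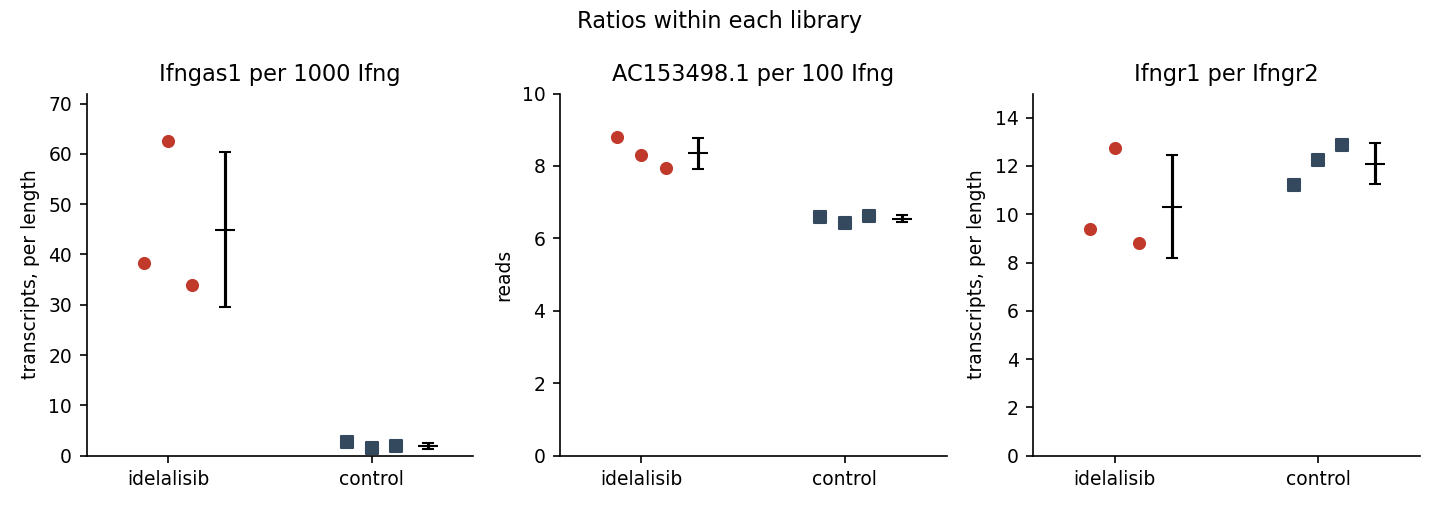
Ratios within each library for Ifngas1 per 1000 Ifng and Ifngr1 per Ifngr2 (transcripts, per length) and for reads of AC153498.1, a row inside Ifng, per 100 Ifng reads, idelalisib left and control right, points for libraries and bars for mean and SD. The Ifngas1 ratio averages 44.9 in idelalisib and 1.97 in control cells and the AC153498.1 ratio 8.35 in idelalisib and 6.54 in control cells, while the groups overlap for the receptor chains.

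Ifng and Ifngas1 lie on opposite strands of chromosome 10 and are transcribed towards each other. Their 3′ ends are separated by 56142 bases and their start sites by 115 kb, so neither row covers the other, and reads of one cannot be counted for the other through overlap. Ifngas1 spans 54.5 kb and Ifng 4.85 kb. Ifngas1, Ifngr1 and Ifngr2 overlap no other row of the table, whereas Ifng contains 1.

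That row is AC153498.1 (ENSMUSG00000111913, chr10:118441419-118444140, plus strand), a single-exon locus annotated as yet to be tested by experiment, on the same strand as Ifng. It covers 2386 bases outside the exons of Ifng and shares 336 exonic bases with them, and how reads in the shared bases were assigned is not stated. Its values were 13.8, 10.8 and 12.1 CPM in idelalisib libraries, against 25.3, 27.0 and 23.9 CPM in control libraries. Like Ifng it was lower in every idelalisib library, with a log2 fold change of -1.05 and a standard error of 0.13. Lying inside a member chosen on this contrast, the row gives no separate test. Per 100 Ifng reads the row had 8.81, 8.31 and 7.95 reads in idelalisib libraries, against 6.59, 6.43 and 6.61 in control libraries. The groups did not overlap in this ratio, with means of 8.35 ± 0.430 in idelalisib and 6.54 ± 0.0951 in control libraries (SD, n = 3 each), so the mostly intronic row differed by less than the Ifng row itself. With its reads added to Ifng, the log2 fold change of Ifng was -1.38. The poly(A)-selected libraries do not tell unspliced Ifng RNA from a separate transcript of this row.

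Within 500 kb of Ifng lie 29 other rows, of which 7 had enough counts. Of the 6 that are not members, AC153498.1 was the one called by edgeR, and its place inside Ifng makes that call no separate result. Il22, a cytokine gene of the same cluster, had 2.18 ± 0.828 CPM in idelalisib and 1.09 ± 0.466 CPM in control cells (SD, n = 3 each), a log2 fold change of 0.97 with an adjusted p of 0.0580 (edgeR), and 5 of the alternative settings called it. The log2 fold change was 0.29 for Dyrk2, a protein kinase gene (adjusted p = 0.0535, edgeR; called under 5 alternatives), and -0.07 for Mdm1, -0.14 for Gm9030 and -0.47 for 4932442E05Rik.

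Around Ifngr1, 6 of 18 rows were tested. Map3k5, which encodes the stress kinase ASK1 and lies 343 kb away, rose by 0.43 on the log2 scale (adjusted p = 0.00119), and Pex7, a peroxisomal import receptor gene, rose by 0.62 (adjusted p = 0.00133, edgeR). Slc35d3, 260 kb away, fell by 0.63 (adjusted p = 0.00176, edgeR).

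Ifngr2 belongs to a cluster of class II cytokine receptor genes on chromosome 16, and of 40 rows in its window 15 were tested, 7 rose and none fell, where 22.2% of all tested genes rose. Il10rb, the shared chain of the IL-10, IL-22 and lambda interferon receptors, averaged 20.5 ± 0.908 CPM in idelalisib and 12.9 ± 0.514 CPM in control cells (SD, n = 3 each; log2 fold change 0.67, adjusted p = 0.000529, edgeR). Ifnar1, 61.8 kb upstream of Ifngr2, had 130.4 ± 0.946 CPM in idelalisib and 114.4 ± 4.36 CPM in control cells (SD, n = 3 each; log2 fold change 0.19, adjusted p = 0.0584, edgeR), and Ifnar2 had a log2 fold change of 0.11 (adjusted p = 0.356, edgeR). Both encode the chains of the type I interferon receptor, and Ifnar1 was called under 4 other settings. The remaining 6 genes that rose were Gart, a purine synthesis enzyme gene (0.58), Tmem50b (0.56), Donson (0.44), Son (0.30), 4932438H23Rik (1.67) and A930006K02Rik (1.26), where Son and Donson overlap on opposite strands. The rise of Son did not pass without idelalisib replicate 1 (edgeR adjusted p = 0.0501), control replicate 1 (0.0830) or control replicate 2 (0.0544), and that of Donson did not pass without control replicate 1 (0.0833) or 2 (0.0586). A930006K02Rik, with few reads, did not pass without idelalisib replicate 1 (edgeR adjusted p = 0.0719), control replicate 1 (0.0833) or control replicate 2 (0.0872).

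**Figure D3:**
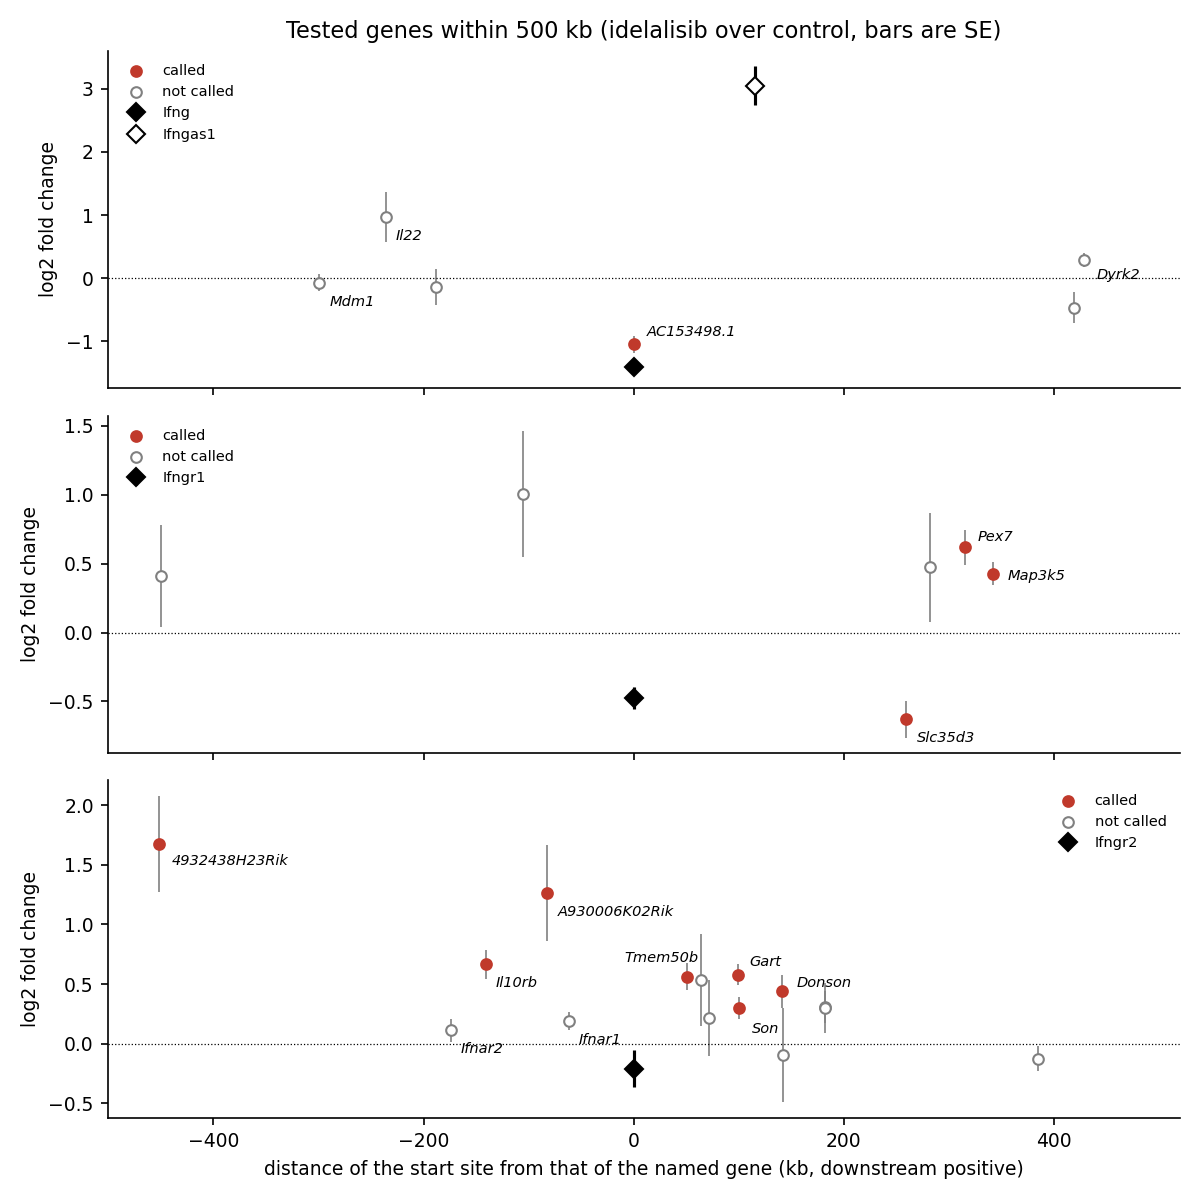
Log2 fold change (idelalisib over control, bars for the standard error) of tested genes against the distance in kb of their start from that of Ifng, Ifngr1 or Ifngr2, filled points for genes called by edgeR, filled diamonds for these members and the open diamond for Ifngas1. Among the non-member rows near Ifng, AC153498.1 inside it is the one called, and 7 of 15 genes near Ifngr2 rose.

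Among the other members of the class II receptor family, 7 of 10 listed chains were tested, and 1 rose and 1 fell (28.6% called, beside 44.6% of all genes, median log2 fold change 0.19 beside 0.01 for all genes). The chain that rose was Il10rb, and the one that fell was F3, the tissue factor gene, with 15.7 ± 0.404 CPM in idelalisib and 24.5 ± 2.09 CPM in control cells (SD, n = 3 each; adjusted p = 0.000577, edgeR). Without idelalisib replicate 2 there were 4 called chains, and with library size alone 6.

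Ifng was the most abundant of 21 cytokine genes in control cells but not in idelalisib cells. It made up 15.9, 13.4 and 14.4% of their summed TPM in idelalisib libraries, against 32.5, 34.9 and 33.8% in control libraries. In every idelalisib library Lta, which encodes lymphotoxin alpha, was first and Ifng second, with Lta at 1242 ± 152 TPM in idelalisib and 777.5 ± 96.9 TPM in control cells (SD, n = 3 each). The summed TPM lay between 2612 and 2747 in idelalisib and between 2490 and 2778 in control libraries, ranges that overlap. Without Ifng the sum was 2261 to 2351 in idelalisib and 1648 to 1875 in control libraries, and most of that gap was Lta. Without Ifng and Lta the other 19 genes summed to 979.3 to 1186 TPM in idelalisib and 969.3 to 1049 TPM in control libraries, ranges that overlap.

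**Figure D4:**
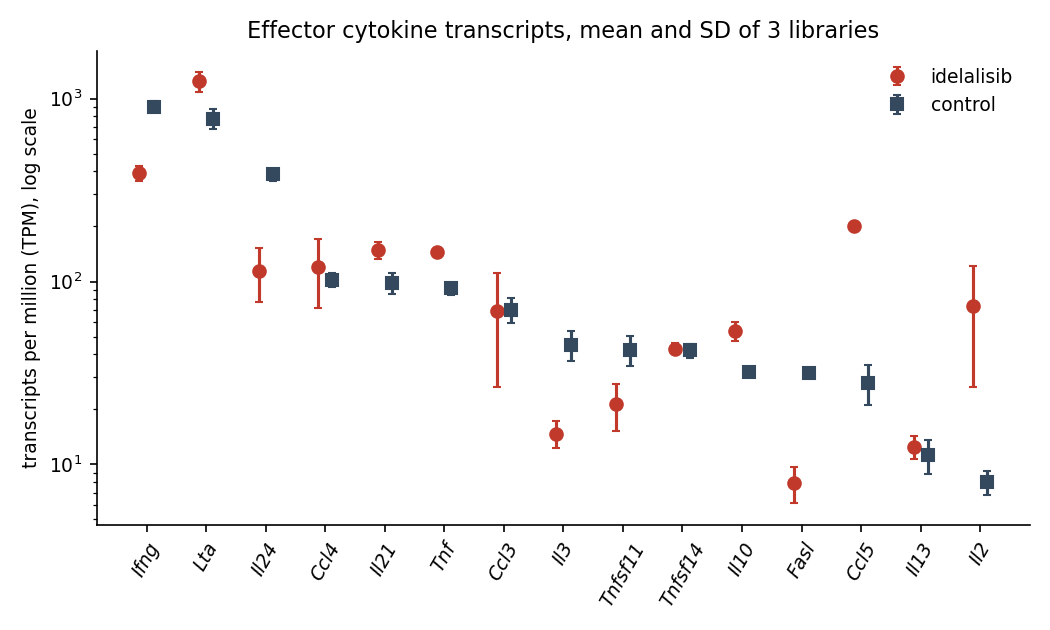
Mean TPM (log axis) of Ifng and the other effector cytokine genes that are most abundant in control cells, circles for idelalisib at the left of each gene and squares for control, bars for the SD over 3 libraries. Ifng lies at 391 TPM in idelalisib and 904 TPM in control cells and Lta at 1242 TPM in idelalisib and 777.5 TPM in control cells.

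Of 17 tested effector cytokines other than Ifng, 7 rose and 4 fell in idelalisib cells (64.7% called, beside 44.6% of all genes, median log2 fold change 0.03). Ccl5, a chemokine gene, averaged 55.7 ± 1.38 CPM in idelalisib and 8.89 ± 2.12 CPM in control cells (SD, n = 3 each), a log2 fold change of 2.64 (adjusted p = 1.30e-08, edgeR). Il2, the T cell growth factor gene, rose by 3.00 on the log2 scale, with 24.3 ± 15.3 CPM in idelalisib and 3.02 ± 0.423 CPM in control cells (SD, n = 3 each; adjusted p = 0.00778, edgeR), and its libraries varied widely. Lta, named after its values were seen, also rose (log2 fold change 0.48, adjusted p = 0.00348, edgeR), and not all cytokine genes that rose are named. Lower were Fasl, the death ligand gene (-2.20), Il24 (-1.95), Il3 (-1.79) and Tnfsf11, the RANKL gene (-1.20), the last 3 named after their values were seen. Ifng thus was 1 of several cytokine genes that were lower.

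Of 18 tested genes for factors known to drive Ifng, 6 rose and 5 fell (61.1% called, beside 44.6% of all genes, median log2 fold change 0.04), a near-even split like that of all genes, of which 22.2% rose and 22.4% fell. Tbx21, which encodes the Th1 master factor T-bet, averaged 115.2 ± 6.19 CPM in idelalisib and 113.4 ± 5.56 CPM in control cells (SD, n = 3 each), a log2 fold change of 0.02 (standard error 0.08, adjusted p = 0.837, edgeR). Eomes, the related T-box factor, rose to 9.30 ± 1.88 CPM in idelalisib cells, against 2.88 ± 0.316 CPM in control cells (SD, n = 3 each; adjusted p = 2.95e-05, edgeR). Hlx, a homeobox partner of T-bet, rose by 1.16 on the log2 scale (adjusted p = 2.11e-05, edgeR). Bhlhe40, which sustains IFN-γ production in mouse Th1 cells by limiting IL-10, fell to 589.2 ± 77.7 CPM in idelalisib cells, against 1290 ± 46.9 CPM in control cells (SD, n = 3 each; adjusted p = 8.20e-07, edgeR). Stat4, which carries the IL-12 signal, fell by 0.55 (adjusted p = 0.000229, edgeR), and the others that fell were Runx3 (-0.71), Rel (-0.42) and Runx1 (-0.32), named after their values were seen. Nfatc1 (0.61) and Nfatc2 (0.42), also named after their values were seen, were among those that rose. So was Irf1 (0.24), with a call that did not hold in all settings, as given below. All activators that fell are named here, but not all that rose. Rel did not pass without idelalisib replicate 1 (edgeR adjusted p = 0.0571) or control replicate 3 (0.0589), and neither Rel (0.0920) nor Runx1 (0.106) passed with library size alone. Wdr5, the partner of Ifngas1, had 55.7 ± 0.974 CPM in idelalisib and 53.6 ± 1.53 CPM in control cells (SD, n = 3 each; log2 fold change 0.06, adjusted p = 0.607, edgeR).

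Of 16 tested restrainers of Ifng transcription or mRNA, 6 rose and 3 fell (56.2% called, beside 44.6% of all genes, median 0.04). Zfp36, whose product destabilises AU-rich mRNAs, rose to 147.7 ± 8.63 CPM in idelalisib cells, against 81.0 ± 4.95 CPM in control cells (SD, n = 3 each; adjusted p = 2.98e-06, edgeR). Twist1, which dampens Th1 cytokine output in mouse, rose by 0.93 on the log2 scale (adjusted p = 0.00590), and Bcl6, a transcriptional repressor, fell by 1.84 (adjusted p = 0.000210, edgeR). Zfp36l2 (-0.28) and Rc3h2 (-0.56), named after their values were seen, also fell, although Zfp36l2 did not pass with library size alone (edgeR adjusted p = 0.161). All restrainers that fell are named here, but not all that rose.

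Among 20 genes of the cytokine and stress-kinase inputs to Ifng, 8 rose and 4 fell (60% called, beside 44.6% of all genes, median 0.14). Il2ra, the alpha chain of the IL-2 receptor, rose to 2326 ± 108.8 CPM in idelalisib cells, against 1530 ± 67.7 CPM in control cells (SD, n = 3 each; log2 fold change 0.60, adjusted p = 2.84e-05, edgeR). Both chains of the IL-18 receptor were among the 4 that fell. Il18r1 averaged 89.0 ± 12.7 CPM in idelalisib and 125.6 ± 2.81 CPM in control cells (SD, n = 3 each; adjusted p = 0.00114, edgeR), and Il18rap 18.5 ± 6.25 CPM in idelalisib and 34.7 ± 7.08 CPM in control cells (SD, n = 3 each; adjusted p = 0.0154, edgeR). Without idelalisib replicate 3 the fall of Il18rap did not pass (edgeR adjusted p = 0.0644), and with the replicate number as a block it did not either (0.0626). The others were Map2k6 (-0.65, adjusted p = 0.00352, edgeR) and, named after its values were seen, Map2k3 (-0.38), both genes for kinases that activate p38. All genes of this list that fell are named, whereas of those that rose only Il2ra is. Map2k3 did not pass without idelalisib replicate 1 (edgeR adjusted p = 0.0659) or control replicate 3 (0.0689), or with library size alone (0.0860). Il12rb2, the signalling chain of the IL-12 receptor, had a log2 fold change of 0.09 (adjusted p = 0.414, edgeR). With library size alone it was called higher (log2 fold change 0.25, edgeR adjusted p = 0.0306). Il12rb2, with 43656 counts, overlaps Serbp1, with 65055 counts, on the opposite strand, so its reads may be mixed with those of Serbp1. The list had 6 called genes without idelalisib replicate 1 or control replicate 3, and 7 without control replicate 1 or with the replicate block.

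Downstream of the receptor, 6 of 14 genes of signalling and its brakes rose and 2 fell (57.1% called, beside 44.6% of all genes, median 0.15). The kinase genes were not called, with log2 fold changes of -0.10 for Jak1 (adjusted p = 0.282, edgeR), which was 0.05 under library size alone, and 0.15 for Jak2 (adjusted p = 0.189, edgeR), which was called without idelalisib replicate 3 (0.0265) and with library size alone (0.0125). Of the listed genes of the SOCS family of feedback inhibitors, Socs1 rose by 0.72 (adjusted p = 0.00226) and Socs3 by 0.73 (adjusted p = 7.57e-05, edgeR), whereas Cish, named after its values were seen, was not called (log2 fold change -0.27, adjusted p = 0.0699, edgeR; called lower under 5 alternatives). Irf9 rose by 0.79 (adjusted p = 7.68e-06, edgeR), and Stat3 (-0.69) and the phosphatase gene Ptpn2 (-0.66), named after their values were seen, fell. Irf9, with 5045 counts, overlaps Rnf31, with 11925 counts, on the same strand, so its reads may be mixed with those of Rnf31. Stat3, with 60554 counts, overlaps Stat5a, with 51951 counts, on the opposite strand, and the same limit holds for it.

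Interferon gamma target genes were mostly higher while Ifng itself was lower: of 29 tested among 34 listed, 21 rose and 1 fell (75.9% called, beside 44.6% of all genes, median log2 fold change 0.53 beside 0.01 for all genes). Many of these genes also respond to type I interferon. Iigp1, an immunity-related GTPase gene, rose to 67.7 ± 14.7 CPM in idelalisib cells, against 6.91 ± 1.52 CPM in control cells (SD, n = 3 each; adjusted p = 1.04e-07, edgeR). Serpina3g, a protease inhibitor gene, rose by 2.61 (adjusted p = 0.000172) and Tgtp2, a GTPase gene with the near-identical copy Tgtp1, by 2.05 (adjusted p = 8.17e-06, edgeR). Irf1, a transcription factor gene induced early by IFN-γ, rose by 0.24 (adjusted p = 0.0427, edgeR) and lost its call under 7 alternatives, with adjusted p up to 0.175. The target that fell was Irf8 (-0.53), named after its values were seen. This list was known from earlier results to be higher and is no independent evidence of a direction.

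**Figure D5:**
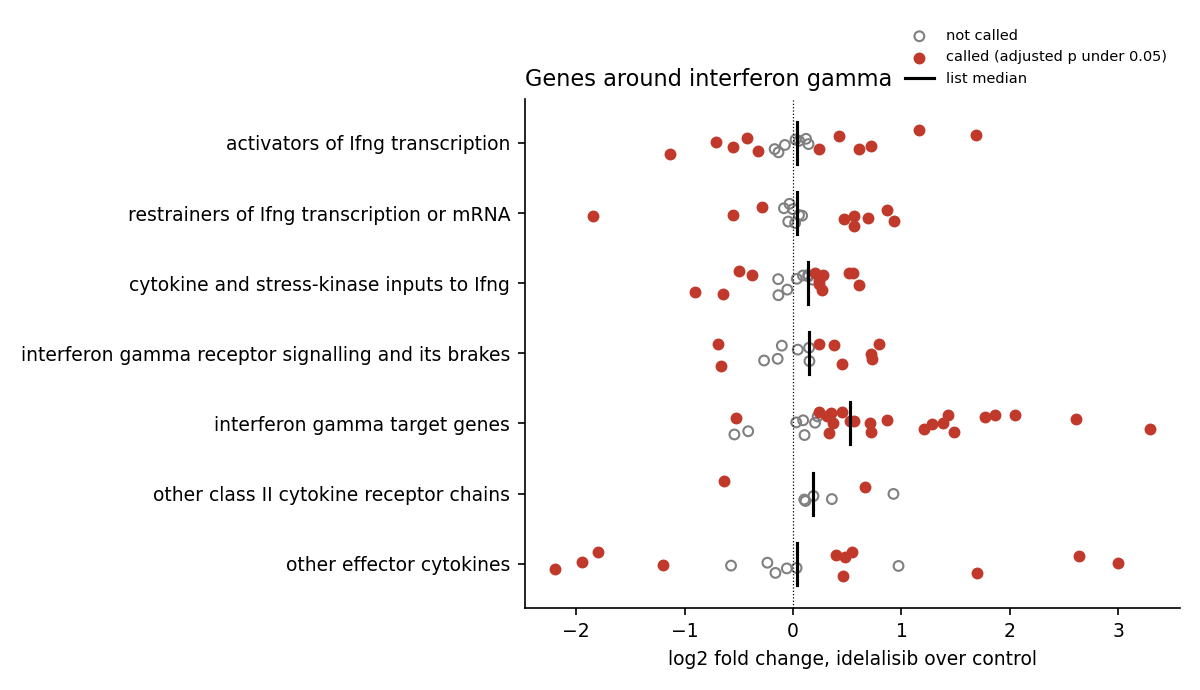
Log2 fold change (idelalisib over control) of every tested gene in 7 lists around IFN-γ, 1 line of points per list, filled for genes called by edgeR and open for the others, with a bar at each median. Target genes have a median of 0.53, and the lists of activators and restrainers have medians of 0.04.

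The protein-coding genes whose centred log2 CPM lay nearest to Ifng over the 6 libraries, by Euclidean distance among 8718 candidates, were Snx18 (distance 0.172), Txk (0.227) and Tg (0.230). Snx18, a sorting nexin gene, averaged 86.3 ± 6.16 CPM in idelalisib and 224.1 ± 2.66 CPM in control cells (SD, n = 3 each). Txk encodes a Tec family kinase of T cells, and Tg, the thyroglobulin gene, overlaps Sla on the opposite strand, so its reads may be mixed with those of Sla. Nearest to Ifngas1 were Ccl5 (0.550), Tha1 (0.569) and Slamf6 (0.610), at larger distances. Ifngas1 has few reads and a large change, and lay below the 10 CPM floor set for the candidates. Its larger distances are therefore not read as a trait of the gene. Nearest to Ifngr1 were Abracl (0.0523), Pex13 (0.0689) and R3hcc1l (0.0745), and nearest to Ifngr2 were Pdxp (0.0705), Cul9 (0.0709) and Mapk7 (0.0747). Pex13 overlaps Pus10 on the opposite strand, so its reads may be mixed with those of Pus10.

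Markers of CD4+ T cells summed to 1562 to 1838 CPM in idelalisib and 1543 to 1695 CPM in control libraries, and 2 of 5, Cd3e and Cd3g, rose. Cd4 itself was not called, with 473.9 ± 53.1 CPM in idelalisib and 554.0 ± 38.1 CPM in control cells (SD, n = 3 each; log2 fold change -0.23, adjusted p = 0.0614, edgeR). Its groups did not overlap, as for 54.6% of all tested genes, but the highest idelalisib library (509.6 CPM) nearly met the lowest control library (510.0 CPM). For Cd4, 4 alternatives gave a call of lower and the others gave no call. Other cells that make IFN-γ left few reads. The CD8 pair summed to 7.24 to 9.50 CPM in idelalisib and 4.43 to 7.86 CPM in control libraries, with Cd8a higher. The gamma delta T cell genes summed to 13.3 to 17.1 CPM in idelalisib and 9.01 to 12 CPM in control libraries, and 2 of 5, Tcrg-C1 and Tcrg-C2, rose. NK cell genes summed to 24.8 to 32.7 CPM in idelalisib and 23.4 to 32.7 CPM in control libraries, 1 of 3 tested, Klrk1, rose, and the defining marker Ncr1 was at 0 in all 6 libraries. B cell genes summed to 11.9 to 15.7 CPM in idelalisib and 7.0 to 8.08 CPM in control libraries, with 4 of 5 tested higher, and myeloid genes to 2.87 to 3.54 CPM in idelalisib and 1.07 to 2.58 CPM in control libraries, with 0 of 1 tested called by edgeR. The calls of several markers did not hold when 1 library was left out, and for each of these more than 1 choice of library removed the call. Cd8a did not pass without idelalisib replicate 1 (edgeR adjusted p = 0.0507) or 3 (0.189), or without control replicate 1 (0.142) or 3 (0.112). Tcrg-C1 did not pass without idelalisib replicate 3 (0.150) or without control replicate 1 (0.132) or 2 (0.142). Klrk1 did not pass without idelalisib replicate 1 (0.0882) or 2 (0.0655), or without control replicate 1 (0.124) or 3 (0.197), and Cd3e did not pass without control replicate 1 (0.0772) or 3 (0.0871). The part of these cells in the values of Ifng, Ifngas1 and the target genes was not tested.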

How the data were processed

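RNA from 6 cultures was sequenced after poly(A) selection with random hexamer priming, per the labels' protocols. The authors deposited unnormalized gene counts. The submitters' processing notes name featureCounts 1.5.0-p3, HISAT2 2.0.5, fastp and the build mm10. Nothing used here states the strand setting, how multi-mapping reads were treated or which annotation release was taken, so reads of overlapping genes could be mixed.

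Genes were kept with filterByExpr (minimum count 10, minimum total 15), and the TMM-scaled counts entered a robust quasi-likelihood test with group as the covariate (edgeR 4.0.16, R 4.3.3). P-values were adjusted by Benjamini-Hochberg over all 14530 genes, and genes with an adjusted p under 0.05 were called. The code was tested on simulated data. Fold changes are idelalisib over control. TPM was computed from the counts and the deposited gene lengths. Exons came from GENCODE M21 and promoters from RefSeq, both on GRCm38, the assembly of mm10. Alternatives were DESeq2 1.42.0, limma-voom (limma 3.58.1), scaling by library size alone, RLE or upper quartiles, other count filters, protein-coding genes alone, a stricter threshold, a replicate block and leaving out each library. No pair of libraries was a duplicate, the chi-square per degree of freedom lying between 4.63 and 18.2. It was 4.63 to 5.55 for pairs of control libraries and 8.97 to 18.2 for pairs of idelalisib libraries. The highest values were for idelalisib replicate 2 with replicate 1 (11.3) and with replicate 3 (18.2).

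The members and lists were chosen with earlier results of these data known. Named genes are the members, the 3 called genes of largest change averaging at least 1 CPM in each list (filled up by smallest p), tested genes within 500 kb, the 3 most alike protein-coding genes of at least 10 CPM, and 14 genes kept whatever their outcome, 1 of which is not reported here. Of the tested neighbours, those not called are given in part as counts.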

Additional observations from a re-analysis of the deposited data

How the results depend on the processing

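Ifng, Ifngas1 and Ifngr1 kept their direction in every alternative that gave a value, and Ifngas1 had none in the fit of protein-coding genes alone. With library size alone, Ifng had a log2 fold change of -1.25 and Ifngr1 of -0.32. Leaving out 1 library gave -1.46 to -1.32 for Ifng, 2.86 to 3.31 for Ifngas1, -0.51 to -0.44 for Ifngr1 and -0.32 to -0.06 for Ifngr2. The genes called higher numbered 3223, 2138 at an adjusted p under 0.01, 4832 with library size alone, and 2472 to 3599 with 1 library left out, and those called lower 3256, 2219 with library size alone, and 2617 to 3581. Called genes among the inputs to Ifng numbered 12, 7 with the replicate block, and 6 to 15 with 1 library left out. Called class II receptor chains numbered 2, 6 with library size alone, and 2 to 4 with 1 library left out. The cause was not tested.

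The labels do not say whether equal replicate numbers mark paired samples. The deviations of same-numbered libraries correlated at 0.08, -0.13 and -0.10, so no shared variation was visible. With 3 libraries in each group these values cannot exclude pairing. With the number as a block, 2910 genes were called higher and 3051 lower.

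Of 1285 refits of 87 named genes, 43 lost a call, 34 gained one and 14 changed sign, none of these 14 for a gene called above. They were Tbx21 (-0.0028 with protein-coding genes alone, -0.0071 to 0.072 with 1 library left out), Jak1 (0.052 with library size alone), Mdm1 (0.083 with library size alone, 0.037 without idelalisib replicate 1, 0.0090 without control replicate 3, lowest -0.17 without idelalisib replicate 2), Gm9030 (0.012 with library size alone, 0.046 without control replicate 2, lowest -0.26 without control replicate 3), Atp5o (0.031 with library size alone), Gm10785 (0.060 with library size alone, 0.0093 with limma-voom, 0.35 without control replicate 3, lowest -0.34 without control replicate 2) and Mapk7 (0.0073 with library size alone, 0.0071 without idelalisib replicate 2, lowest -0.27 without idelalisib replicate 3). Among the 4 members, Ifngas1 has the fewest reads, at 8 to 14 counts in control libraries.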
